A study of Rattus norvegicus with 13 samples.

Results

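The miR-181 family comprised the 4 miRNAs that the array names rno-miR-181a, rno-miR-181b, rno-miR-181c and rno-miR-181d (rno for the rat) among the 677 rat miRNAs on the array. The members were picked out by their names in the array files, and all 4 were among the 176 miRNAs tested. The miRNAs of fat from daughters of male rats on different diets was hybridised to 13 one-colour Agilent arrays, 1 array per animal number. The control group had 7 arrays (622, 627, 631, 656, 658, 662 and 664), from daughters of Sprague Dawley fathers on chow with 9% fat. The HFD group had 6 arrays (619, 620, 624, 629, 660 and 663), from daughters of Sprague Dawley fathers on pellets with 43% fat. Fathers were mated at 15 weeks with chow-fed females, and the fat of the daughters, which themselves ate chow, was taken at 14 weeks. The labels name no genetic change in either group. The labels name neither the fat depot nor the father or litter of a daughter, so p-values measure the spread between these animals, and sisters could be among them.

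A miRNA is a short RNA that guides a silencing complex to messenger RNAs, and its seed, near the 5′ end, sets most of the pairing. The miR-181 family is found across vertebrates and is best known from lymphocytes, where miR-181a tunes the sensitivity of the T cell receptor, and from blood vessels, where miR-181b restrains inflammatory signalling in endothelial cells. Fat holds both cell types beside adipocytes, so a level in whole tissue is a sum over them, and fewer cells of a type cannot be told apart from less miRNA per cell.

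The 4 mature sequences are shown because the probes must separate RNAs that share a seed. They are from RefSeq on GRCr8, with the seed (bases 2 to 8 from the 5′ end) in capitals.
miR-181a: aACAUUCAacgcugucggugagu
miR-181b: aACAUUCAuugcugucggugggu
miR-181c: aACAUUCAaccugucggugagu
miR-181d: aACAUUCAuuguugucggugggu
Of 693 rat mature names in the same table, 4 carried the seed ACAUUCA, and these were the 4 members. No difference between members lay in the seed. Counting from the 5′ end of the first named, miR-181a and miR-181b differed by A9U, C10U and A21G, miR-181a and miR-181c by the single deletion G11del, and miR-181b and miR-181d by the single substitution C12U. The largest separation was between miR-181d and miR-181c, with 5 differences (U9del, U10A, G11C, U12C and G21A). Because the closest pairs differ by 1 base, signal of one member on a probe for another cannot be told apart from its own in these data.

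The 4 sequences come from 3 places in the rat genome, each with 2 hairpins (GRCr8, forward strand). Mature miR-181a lies at chr3:43025601-43025623 in Mir181a2 and at chr13:52037081-52037103 in Mir181a-1. Mature miR-181b lies at chr13:52037263-52037285 in Mir181b1, and its letters are also in the hairpin of Mir181b2 at chr3:43026666-43026753. Mature miR-181c lies at chr19:40888314-40888335 and miR-181d at chr19:40888484-40888506, so these are neighbours on 1 chromosome and strand. The hairpins of this last pair are shown, with the mature arm in capitals, because their levels are set against each other further on.
Mir181c: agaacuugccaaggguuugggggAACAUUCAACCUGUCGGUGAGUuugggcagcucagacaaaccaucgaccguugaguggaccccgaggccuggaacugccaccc
Mir181d: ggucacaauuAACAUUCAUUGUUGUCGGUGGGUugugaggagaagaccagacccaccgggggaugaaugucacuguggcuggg
The arrays measure mature RNA, so the chr3 and chr13 copies of miR-181a and miR-181b are not separated.

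The arrays detected between 155 and 196 miRNAs each. The signal to which each array was scaled, its 75th percentile over 260 probes detected on all arrays, ran from 1546 to 2167 intensity units on 12 arrays and was 2540 on HFD 629. The mean log2 level of the 3 tested muscle miRNAs was 0.50 on HFD 629, 0.46 on control 662 and -0.13 on control 664, against -5.06 to -2.30 on the other 10 arrays. Of 7 listed adipocyte miRNAs, 7 were tested, and their mean log2 level lay between 0.16 and 0.58 on every array. Each diet difference and each correlation between members was also computed without the 3 arrays rich in muscle miRNAs.

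Every member had a pair of probes, each printed as 10 spots per array, and a miRNA counted as detected where at least 0.5 of a probe's spots were well above background. miR-181a was well above background on 70 of 70 control spots and 60 of 60 HFD spots with either probe. Its brighter probe gave a mean background-subtracted signal of 384 to 517 (median 451) in controls and of 392 to 519 (median 465) in HFD daughters. The 2 groups covered nearly the same range.

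The other members lay close to background. For miR-181b the brighter probe gave 44.8 to 74.4 (median 60.0) in controls and 51.8 to 64.7 (median 61.5) in HFD daughters. That probe was well above background on 65 of 70 and 60 of 60 spots, and the dimmer probe on 17 of 70 and 32 of 60. For miR-181c the brighter probe gave 39.2 to 83.7 (median 62.6) in controls and 51.8 to 80.4 (median 68.1) in HFD daughters. It was well above background on 65 of 70 and 59 of 60 spots, and the dimmer probe on 29 of 70 and 30 of 60. Both miRNAs were detected on 13 of 13 arrays, through the brighter probe.

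miR-181d was the member nearest to background. Its brighter probe gave 31.9 to 57.8 (median 45.9) in controls and 40.6 to 63.0 (median 50.5) in HFD daughters, with 45 of 70 and 52 of 60 spots well above background. Its dimmer probe was well above background on 4 of 70 and 5 of 60 spots. miR-181d was detected on 9 arrays, 4 of the 7 controls and 5 of the 6 HFD arrays. On the remaining arrays (controls 627, 662 and 664 and HFD 619) its value is a level not well above background by this rule. Of these, controls 662 and 664 were rich in muscle miRNAs. The Feature Extraction software called miR-181d detected on every array, so the split between groups depends on the rule.

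**Figure D1:**
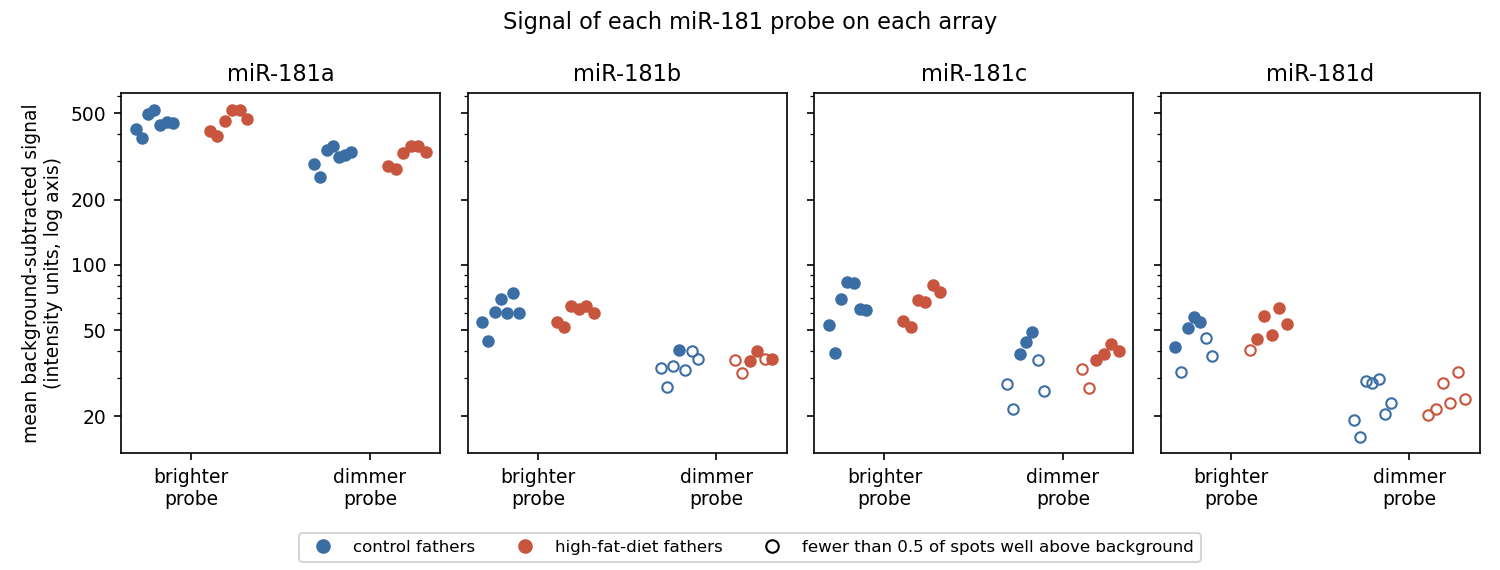
Mean background-subtracted signal (intensity units, log axis) of the brighter and the dimmer probe of each miR-181 member, 1 point per array, for 7 control and 6 HFD arrays. Open points mark arrays where fewer than 0.5 of the probe's spots were well above background, which include every array for the dimmer miR-181d probe and none for miR-181a.

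The opposite strands of the hairpins gave almost no signal above background. The array carries 6 of them (miR-181a-1*, miR-181a-2*, miR-181b-1*, miR-181b-2*, miR-181c* and miR-181d*) with 12 probes. Over all arrays 5 of their 1560 spots were well above background, and none of the 6 was detected on any array by the rule used here. The highest probe signal was 20.4, for miR-181a-1*, which the Feature Extraction software called detected on 1 array. The RefSeq sequence of that strand, aCCAUCGAccguugauuguacc, shares its seed CCAUCGA with miR-181c-3p, aCCAUCGAccguugaguggacc.

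Whether the diet of the father moved the family in daughters' fat was tested with limma over all 176 tested miRNAs, on levels scaled to the 75th percentile of each array and expressed as log2. Scaled probe values below 0.0197 (log2 -5.67) were raised to that floor. No member passed an adjusted p of 0.05, and the share of all tested miRNAs called was 0%. At an unadjusted p under 0.05 limma called 2 of 176 miRNAs (1.14%), neither of them a member. By sign, 2 members were higher and 2 lower in HFD daughters with a median difference of 0.0052, while 91 tested miRNAs were higher and 85 lower with a median of 0.0028. The groups overlapped for every member, and the share of all tested miRNAs whose groups did not overlap was 0%.

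miR-181a had log2 levels of -2.48 to -2.30 (median -2.34) in controls and of -2.57 to -2.26 (median -2.33) in HFD daughters. The lowest array was HFD 629 and the highest HFD 624, so the HFD values enclosed all the control values. The means were -2.37 ± 0.068 (SD, n = 7) and -2.36 ± 0.11 (SD, n = 6). The difference was 0.011 ± 0.053 (SE; limma adjusted p = 0.987), a fold of 1.01 with a 95% interval of 0.931 to 1.09. HFD 629 was low in this scaled level while its brighter-probe signal, 516, was among the highest of the 13 arrays, and it is the array with the largest scaling signal and the highest muscle miRNA level. The part of either in that low value was not tested. Without HFD 629 the difference was 0.052 (adjusted p = 0.678).

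miR-181b had log2 levels of -5.39 to -5.25 (median -5.37) in controls and of -5.50 to -5.25 (median -5.35) in HFD daughters. Here again HFD 629 was lowest, and the groups overlapped over the whole control range. The means were -5.35 ± 0.050 (SD, n = 7) and -5.35 ± 0.092 (SD, n = 6), with a difference of -0.0026 ± 0.045 (SE; limma adjusted p = 0.999). The fold was 0.998 with a 95% interval of 0.933 to 1.07. The dimmer probe sat at the floor on 12 of 13 arrays, which narrows both the spread and the interval.

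miR-181c had log2 levels of -5.48 to -4.99 (median -5.31) in controls and of -5.45 to -5.20 (median -5.26) in HFD daughters. Its 2 extremes were both controls, 627 at the bottom and 658 at the top, and every HFD value fell between them. The means were -5.28 ± 0.17 (SD, n = 7) and -5.29 ± 0.099 (SD, n = 6), with a difference of -0.00048 ± 0.077 (SE; limma adjusted p = 0.999) and a fold interval of 0.890 to 1.12. The dimmer probe was at the floor on 10 arrays. The sign of the differences of miR-181a, miR-181b and miR-181c turned under some other processing, so no direction is given for them.

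miR-181d had the largest difference of the family in this processing, while in the deposited table that of miR-181c was larger (0.25 against 0.20), as it was with total gene signal (0.18 against 0.13). Its log2 levels were -5.66 to -5.43 (median -5.57) in controls and -5.67 to -5.33 (median -5.45) in HFD daughters. HFD 624, HFD 660 and HFD 620 lay above the highest control, while HFD 629 lay below the lowest, at the floor. Before scaling, the brighter probe on HFD 629 gave 47.3, with 9 of 10 spots well above background, against a control median of 45.9. That array had the largest scaling signal, and the part of the scaling in its low level was not tested. The means were -5.55 ± 0.092 (SD, n = 7) and -5.47 ± 0.12 (SD, n = 6), a difference of 0.082 ± 0.059 (SE) that was not past the threshold (limma adjusted p = 0.965) with a fold interval of 0.968 to 1.16. The dimmer probe was at the floor on all 13 arrays, and averaging it in shrinks the difference, its SE and the interval. The brighter probe alone gave 0.16 ± 0.11 (SE; limma adjusted p = 0.958). With both probes the difference ranked 27 of 176 by p and 64 of 176 by size. The level was above the control mean on 5 of 6 HFD arrays. Without HFD 629 the difference was 0.12 (limma adjusted p = 0.678), and with array weights that reduce the part of deviating arrays it was also 0.12 (limma adjusted p = 0.595). Both of these were under 0.05 before adjustment. In that way limma called 9 of 176 miRNAs without HFD 629 and 12 of 176 with array weights, miR-181d among them. After adjustment 0 of 176 passed in either fit.

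**Figure D2:**
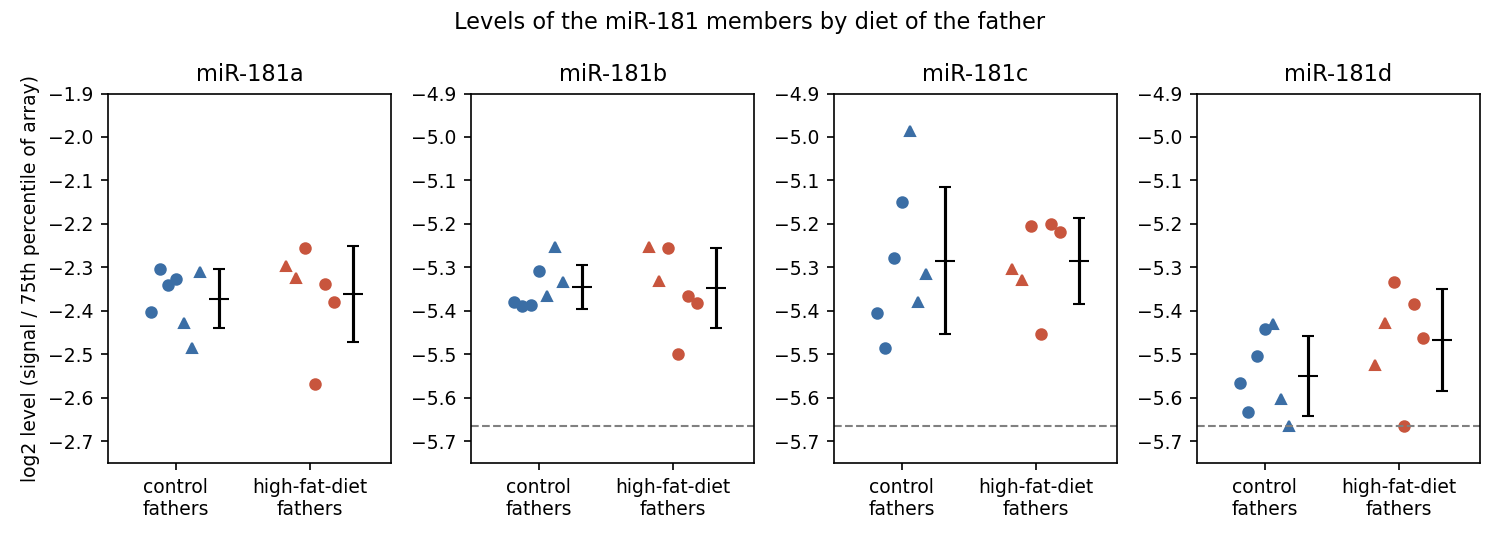
Log2 level of each miR-181 member, scaled to the 75th percentile of each array, with 1 point per array (circles slide 1, triangles slide 2), the black bar giving mean ± SD of 7 control and 6 HFD arrays, and the dashed line the floor at -5.67. The groups overlap for all 4 members, with the HFD range of miR-181a running from -2.57 to -2.26 and enclosing the control range.

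The floor hid part of the spread of the dim members, so the same levels were fitted without it, an alternative chosen after the data were seen. The SD over 13 arrays was then 0.12 for miR-181b, 0.22 for miR-181c and 0.23 for miR-181d, against 0.086 for miR-181a. The differences were 0.0080 ± 0.073 for miR-181b, 0.063 ± 0.12 for miR-181c and 0.11 ± 0.12 for miR-181d (SE; limma adjusted p 0.965 to 0.978). These data leave fold intervals of 0.923 to 1.10 for miR-181a, 0.902 to 1.12 for miR-181b, 0.868 to 1.26 for miR-181c and 0.896 to 1.30 for miR-181d. With no floor all 4 intervals include a fold of 1.

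The 2 probes of a member are separate oligonucleotides for 1 RNA. Set against each other they compare levels within the array, but cannot tell apart signal of another member that reaches both. Without the floor their levels correlated across the 13 arrays at r = 0.92 for miR-181a, 0.73 for miR-181b, 0.86 for miR-181c and 0.86 for miR-181d, a description, since both share the array and its scaling. The probe differences had the same sign in 3 members. For miR-181d they were 0.15 ± 0.12 and 0.070 ± 0.14 (SE; limma adjusted p = 0.963 for both, over 381 probes). For miR-181b they were opposite, at -0.026 ± 0.078 and 0.042 ± 0.076.

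Both slides held both groups. Within slide 1 (4 control and 4 HFD arrays) the differences were -0.042 for miR-181a, -0.010 for miR-181b, 0.059 for miR-181c and 0.074 for miR-181d. Within slide 2 (3 control and 2 HFD arrays) they were 0.097, 0.027, -0.091 and 0.089 in the same order. miR-181d was higher in HFD daughters on both slides, and the other 3 members changed sign between slides. On slide 2 every control (658, 662 and 664) had an animal number above 640, and each HFD array (619 and 620) had one below it. Diet and animal number range therefore cannot be told apart on slide 2, where controls 662 and 664 were also rich in muscle miRNAs. The interaction of diet group and slide did not pass for any member (limma adjusted p 0.504 to 0.944), while it passed for 1 of 176 miRNAs. At an unadjusted p under 0.05 limma called 34 of 176 for this interaction. For the difference between slides beside the diet groups it called 22 of 176 in that way, and 0 after adjustment.

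**Figure D3:**
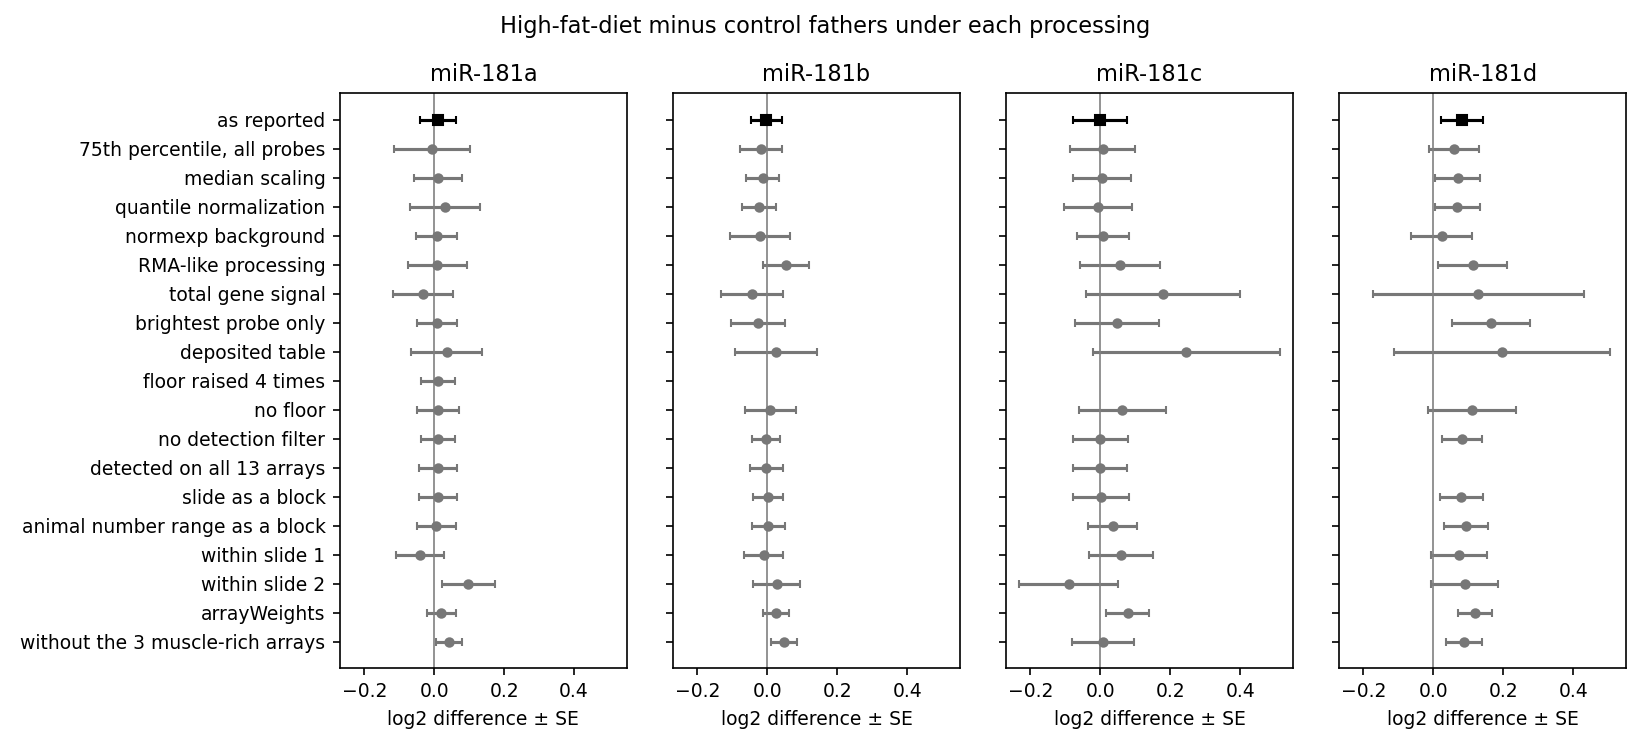
Difference in log2 level between HFD and control daughters for each miR-181 member under the processing used here (black square) and its alternatives (grey), with bars of ± SE. The differences of miR-181d all lie above 0, from 0.024 to 0.20, and those of the other members lie on both sides of 0.

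The members were next compared with one another across the 13 arrays, over 6 pairs, with permutation tests of 100000 resamples. miR-181c and miR-181d, the neighbours on chromosome 19, varied together, with r = 0.72 (two-sided permutation p = 0.0045, adjusted p = 0.027) and Spearman's rho = 0.75 (adjusted p = 0.0272). Without controls 627 and 658, the arrays farthest from the miR-181c median, r was 0.77. With no floor r was 0.82 and rho 0.82 (permutation adjusted p = 0.00438 and 0.00564). The correlation was 0.82 after slide and group were fitted, and 0.91 over the 8 arrays of slide 1 (exact permutation adjusted p = 0.014), while slide 2 has too few arrays for a value.

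The call for miR-181c with miR-181d depended on which arrays were included, although r itself moved little. The pair passed in 11 of 13 computations that each left out 1 array, and in 12 of 13 alternatives. Its r was 0.67 without HFD 629 (permutation adjusted p = 0.091) and 0.68 without control 627 (permutation adjusted p = 0.0776). Without the 3 arrays rich in muscle miRNAs r was 0.70 (permutation adjusted p = 0.116). In all pairs of tested miRNAs, 15400 in number, the median r was 0.029 and 3.1% had an r at least as high. The levels of both members share array, scaling and closeness to background, and the part of these in the correlation was not tested.

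**Figure D4:**
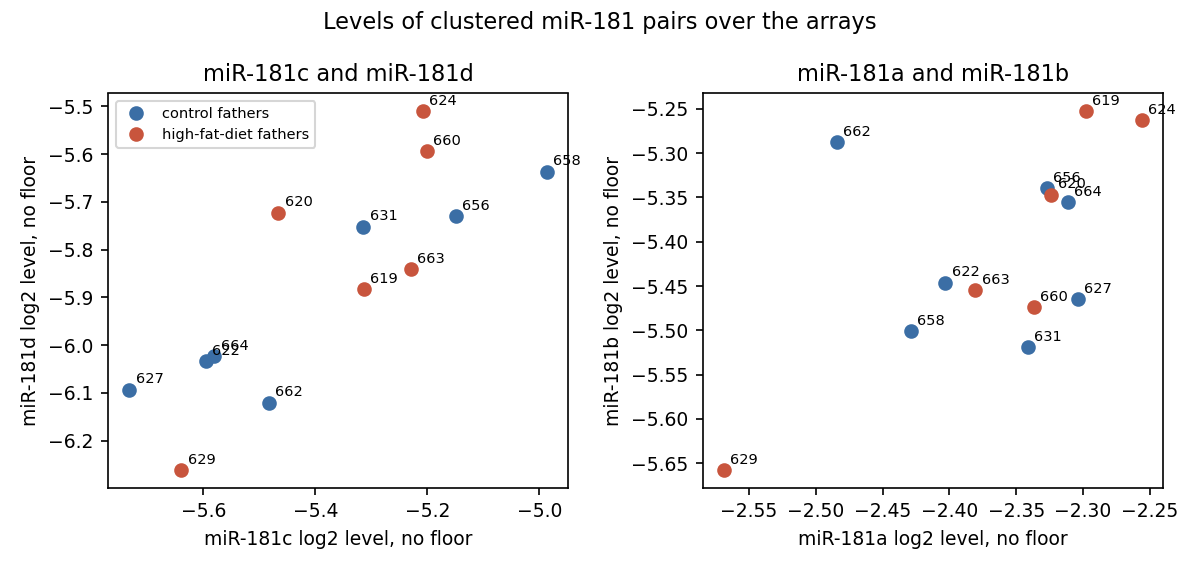
Log2 level without the floor for the pairs miR-181c with miR-181d and miR-181a with miR-181b, 1 point per array labelled by animal number, for control and HFD daughters. miR-181c and miR-181d rise together over the 13 arrays (r = 0.82 without the floor).

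The other pairs did not pass. miR-181a and miR-181b, which share their clusters on chromosomes 3 and 13, had r = 0.54 (permutation p = 0.062, adjusted p = 0.186) and rho = 0.41. Without HFD 629 their r was 0.13 (permutation adjusted p = 0.956), and without control 662 it was 0.84 (permutation adjusted p = 0.0054), so the value depended on single arrays. The pairs closest in sequence had lower values in this processing. miR-181a with miR-181c had r = 0.21 (permutation adjusted p = 0.485), and miR-181b with miR-181d had r = 0.37 (permutation adjusted p = 0.329). With normexp background the latter pair had the highest r of the 6, 0.92 against 0.91 for miR-181c with miR-181d. The remaining pairs were miR-181a with miR-181d at 0.45 (permutation adjusted p = 0.233) and miR-181b with miR-181c at 0.26 (permutation adjusted p = 0.478). How many pairs passed depended on the scaling and ran from 0 to 6 over the alternatives. The correlations of all pairs of tested miRNAs were not computed under the alternatives, so these counts have no background beside them.

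**Figure D5:**
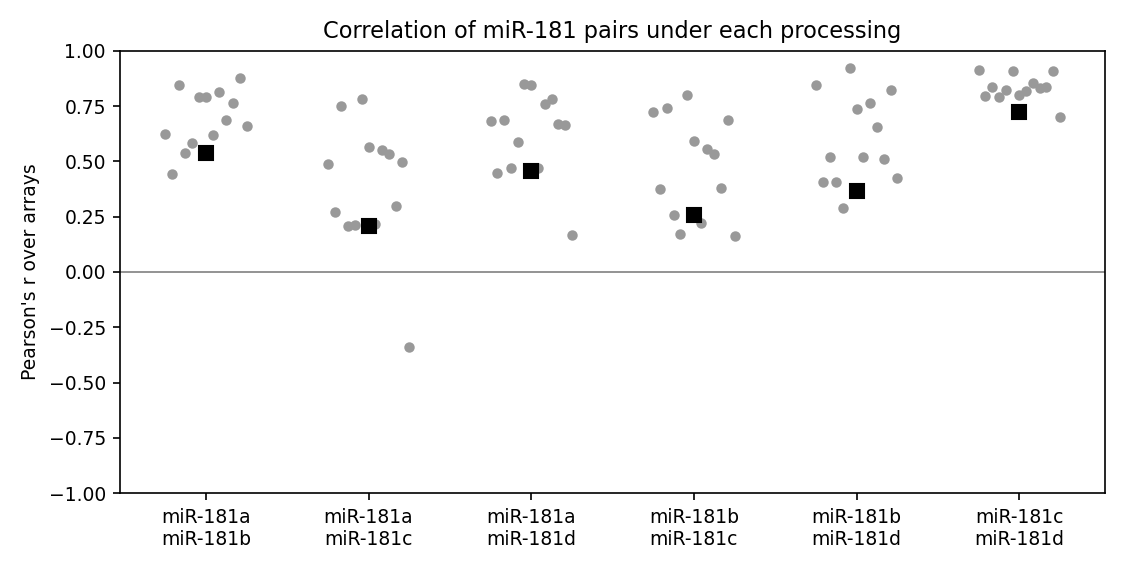
Pearson correlation of each pair of miR-181 members across arrays, under the processing used here (black squares) and its alternatives (grey points). The pair miR-181c and miR-181d lies between 0.70 and 0.91 under every alternative drawn, while miR-181a with miR-181c runs from -0.34 to 0.78.

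For each member the 3 other tested miRNAs with the highest Pearson correlation over the 13 arrays were taken from 172 candidates. For miR-181a these were miR-497 (r = 0.93), miR-130a (0.92) and miR-195 (0.91), and without HFD 629 and control 662 the values were 0.80, 0.68 and 0.71. For miR-181b they were miR-3593-3p (0.78), miR-483* (0.77) and miR-98 (0.71), where miR-483* had a probe at the floor on 11 arrays. For miR-181c they were miR-145 (0.76), miR-28 (0.73) and miR-143 (0.72), which were 0.53, 0.35 and 0.41 without controls 627 and 658. For miR-181d they were miR-376b-3p (0.74), miR-24-2* (0.69) and miR-193* (0.67), the last 2 with a probe at the floor on all 13 arrays. The likeness of miR-181a to its 3 miRNAs therefore concerns signals off the floor throughout, and that of miR-181d does not. No miRNA was among the 3 of more than 1 member.

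Cell types in which the family is known were followed through their own miRNAs. Of 7 tested lymphoid and myeloid miRNAs, 1 was higher and 6 lower in HFD daughters (median -0.064), and none passed. Their mean log2 level ran from -2.25 to -1.42 in controls and from -2.08 to -1.81 in HFD daughters. Across arrays it correlated with miR-181a at r = 0.13, with miR-181b at -0.20, with miR-181c at -0.54 (rho = -0.49) and with miR-181d at -0.49. None passed over the 12 relations computed (lowest permutation adjusted p = 0.216). Without the 2 arrays farthest from the median lymphoid and myeloid level, r was -0.19, -0.52, -0.44 and -0.21 in the same order, not tested.

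The 2 tested endothelial strands, miR-126 and miR-126*, were both higher in HFD daughters (median 0.084) without passing. Their mean correlated with miR-181d at r = 0.60 (permutation p = 0.0314, adjusted p = 0.216) and rho = 0.56. With miR-181a r was 0.46, with miR-181b 0.50 and with miR-181c 0.14. Without the 2 arrays farthest from the median endothelial level, r was 0.67 for miR-181a, 0.68 for miR-181b, 0.74 for miR-181c and 0.72 for miR-181d, so the lower value of miR-181c rested on those arrays. The 3 muscle miRNAs were lower in HFD daughters (median -0.18), each by less than its SE. Their differences were -0.18 ± 1.67 for miR-1, -0.54 ± 1.67 for miR-133b and -0.10 ± 0.20 for miR-499 (SE). The 3 red cell miRNAs were higher (median 0.55), and so were 5 of 7 adipocyte miRNAs (median of the 7, 0.082). None of these miRNAs was past the threshold. Over the 10 arrays poor in muscle miRNAs, the muscle mean correlated with miR-181a at r = -0.067, with miR-181b at 0.53 (permutation adjusted p = 0.216), with miR-181c at 0.40 and with miR-181d at 0.039. Without the 2 of these arrays farthest from the median muscle level, r was 0.33, 0.74, 0.47 and 0.51 in the same order. The r values without 2 arrays rose for muscle as for endothelium, and were not tested. Control 662, control 664 and HFD 629, which were rich in muscle miRNAs, are not among these 10 arrays. Counted from the lowest level over all arrays, they ranked in that order 4, 2 and 1 for miR-181d. The ranks were 2, 10 and 1 for miR-181a, 12, 8 and 1 for miR-181b, and 4, 6 and 2 for miR-181c. Whether muscle content had a part in these ranks was not tested. No part of these cell types in the levels of the family was tested beyond the correlations given.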

How the data were processed

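Per the file headers, the intensity values were made by the authors with Agilent Feature Extraction 10.7.3.1, as background-subtracted spot signals. Per the labels, 100 ng of total RNA was labelled. RMA and Partek are listed in the submitters' processing notes. The deposited table holds log2 values, which equal log2 of the total gene signal within 2e-04 for all but 26 of 2569 values, and was an alternative only. Per the labels, samples were grouped by title; the other fields deposited, spot flags and names, are neither intensity nor log2.

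Unflagged spots were averaged per probe, scaled by the 75th percentile of 260 probes that all 13 arrays detected, floored at 0.0197, put on the log2 scale and averaged over the probes of a miRNA. The 176 miRNAs detected on at least 6 arrays were fitted with limma 3.58.1 (R 4.3.3; lmFit, eBayes) and Benjamini-Hochberg adjustment at 0.05, which was tested on simulated data. Correlations and their permutations used numpy 2.4.6, with ranks from scipy 1.17.1, and 100000 resamples, or all permutations under 10 arrays. The number of arrays limits the precision. Named were the 4 members, their opposite strands, the 3 miRNAs most alike to each and the cell type lists. The members and lists were chosen with earlier results of these data known. Alternatives changed scaling, background, normalization, probe summary, floor, filter, blocks and arrays. The alternative with normexp (offset 50) used median spot signals, and the RMA-like one used normexp for its background. RefSeq names matched all 4 members (GRCr8); the array's own build is rn4, and none of its coordinates is given.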

Additional observations from a re-analysis of the deposited data

Results flagged for a closer look

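Of 16 combinations of a group and a value of the family (level or signal) checked for an array standing apart from its group, 0 were found.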

How the results depend on the processing

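No paired analysis was possible because the groups share no replicate numbers. The count of miRNAs past the threshold was 0 under all 18 alternatives and in 13 fits that each left out 1 array (range 0 to 0), with limma calling 1 to 17 at an unadjusted p under 0.05. No member passed in any of them (limma adjusted p 0.370 to 0.995 for miR-181d).

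The difference of miR-181d kept its sign throughout. Those of the others, all small against their SE, did not. miR-181a turned to -0.0066 with the 75th percentile over all probes, -0.032 with total gene signal and -0.042 within slide 1. miR-181b turned to 0.054 with RMA-like processing, 0.025 in the deposited table, 0.0080 with no floor, 0.0034 with slide and 0.0026 with animal number range as a block, 0.027 within slide 2, 0.025 with array weights and 0.048 without the 3 arrays rich in muscle miRNAs. miR-181c turned to 0.0068 with the 75th percentile over all probes, 0.0047 with the median, 0.0072 with normexp, 0.056 RMA-like, 0.18 with total gene signal, 0.047 with the brightest probe, 0.25 in the deposited table, 0.063 with no floor, 0.0031 with slide and 0.036 with number range as a block, 0.059 within slide 1, 0.078 with array weights and 0.0086 without the 3 arrays rich in muscle miRNAs. Leaving out 1 array gave -0.010 to 0.052 for miR-181a, -0.022 to 0.028 for miR-181b, -0.034 to 0.049 for miR-181c and 0.056 to 0.12 for miR-181d. The cause was not tested.

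Of 6 pairs of members, 1 passed in the processing used here. The count was 4 with the 75th percentile over all probes, 4 with the median, 6 with quantile normalization, 6 with normexp, 5 RMA-like, 3 with total gene signal, 5 in the deposited table, 3 within slide 1 and 0 without the 3 arrays rich in muscle miRNAs, where r of miR-181a with miR-181c was -0.34 (fewer arrays enter there). Leaving out 1 array gave counts of 0 to 2, and r of miR-181a with miR-181c of -0.083 to 0.49. Whether other pairs of tested miRNAs rose in the same way under these settings was not computed, so the counts are not read as particular to the family. The number range block and no floor were chosen after seeing the data. With the floor raised 4 times, 3 members were at it on all arrays and have no value, and miR-181d has none where detection on all 13 arrays was required. Signals near background limit miR-181b, miR-181c and miR-181d.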

Other observations

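The animal numbers fall into a range below 640 and one above it. Beside the diet groups, miR-181c was 0.15 ± 0.070 (SE, log2) higher in the upper range (limma adjusted p = 0.595), and the other members had adjusted p-values of 0.781 to 0.890. No miRNA of 176 passed for this term, which limma called for 13 at an unadjusted p under 0.05.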
